A study of Mus musculus with 12 samples.

Results

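The genes described here are 9 genes that carry or restrain the signal of the type I interferon receptor and related cytokine receptors: Ifnar1, Ifnar2, Jak1, Jak2, Tyk2, Stat2, Stat3, Socs1 and Socs3. They were taken from the count table by gene symbol, under a rule that uses no measured value but was written with earlier results of these data known, and all 9 of the 9 were among the 9431 genes that could be tested out of 22561 genes in the table. RNA was measured in 12 samples of follicular (FO) B cells sorted from the spleens of C57BL6 mice aged 10 weeks, with 3 samples in each of 4 groups. One group was left unstimulated, and the others received IFNα, CpG or CpG + IFNα for 12 h. IFNα is a type I interferon, and CpG is a synthetic oligodeoxynucleotide sensed by TLR9. The labels name no mutation or transgene in any group. Whether the unstimulated cells were also kept in culture is not stated in the sources used here. The samples of a group are labelled as separate samples, but nothing says that they came from separate mice, so p-values measure the spread between these samples, which may be technical.

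Type I interferon binds a receptor made of the IFNAR1 and IFNAR2 chains, whose cytoplasmic parts hold the kinases TYK2 and JAK1. These kinases phosphorylate STAT proteins, and STAT2 then enters the nucleus with IRF9 as part of the complex ISGF3, which binds the interferon-stimulated response element (ISRE) in the promoters of antiviral genes. JAK2 serves receptors for other cytokines such as IFN-γ, and STAT3 is best known downstream of IL-6, IL-10 and IL-21, cytokines that act on B cells during plasma cell differentiation. SOCS1 and SOCS3 are transcribed in response to STATs and inhibit the JAK kinases, which closes a negative feedback loop.

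Since STATs act through short DNA elements, the 300 bases around each start of transcription (250 before and 50 after) in RefSeq, build GRCm38.p6, were searched on both strands for the core of the ISRE (2 copies of TTTC with any 2 bases between them, read as GAAA on the other strand) and for the gamma-activated site bound by STAT dimers (GAS, TTCNNNGAA). All 9 genes had 1 window each. The ISRE core was found in 2 of the 9 windows, those of Stat2 and Socs1, and in 3.44% of 32851 promoters. The GAS was found in 3 of the 9, those of Ifnar1, Ifnar2 and Socs3, and in 8.3% of promoters. The matches of Stat2, Socs1 and Socs3 are shown because these were the genes with the largest response to IFNα among the 9, and that of Ifnar2 because this gene did not pass the test in any comparison. Each sequence is written 5′ to 3′ on the strand of the gene, with the matched bases in capitals.
Stat2, ISRE core, chr10:128270248-128270315, plus strand: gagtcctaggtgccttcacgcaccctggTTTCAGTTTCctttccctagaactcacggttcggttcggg
Socs1, ISRE core, chr16:10785574-10785649, minus strand: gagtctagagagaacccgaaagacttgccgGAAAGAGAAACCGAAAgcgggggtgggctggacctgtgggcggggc
Socs3, GAS, chr11:117969482-117969550, minus strand: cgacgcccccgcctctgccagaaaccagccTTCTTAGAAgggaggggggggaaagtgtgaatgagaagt
Ifnar2, GAS, chr16:91372539-91372607, plus strand: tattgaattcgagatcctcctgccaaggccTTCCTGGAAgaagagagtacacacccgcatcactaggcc
The Stat2 match lay 222 to 213 bases before the start, the 2 overlapping Socs1 matches 83 to 68 bases, the Socs3 match 154 to 146 bases and the Ifnar2 match 214 to 206 bases before it. These distances are from the RefSeq start. For Socs3 that start, at 117969366, lies 681 bases inside the gene as GENCODE M21 draws it below, so its match falls within that gene. For Stat2 the RefSeq start lies 61 bases before the GENCODE one, and for Socs1 and Ifnar2 both are the same. The match in Ifnar1 spans its start and is not printed. A match describes the letters only, and binding was not measured.

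Bulk RNA barcoding (BRB) sequencing, used for these libraries, tags each transcript once at its 3′ end with a unique molecular identifier (UMI), so that counts do not grow with transcript length. Totals were between 922450 and 2923865 UMI counts per sample, with medians of 1098670 without stimulation, 1351378 for IFNα, 1645907 for CpG and 1900101 for CpG + IFNα. Levels are given as TMM-scaled CPM, that is UMI counts of a gene over the library total, and are shares of each library, so that RNA per cell was not measured and fewer cells of a type cannot be told apart from less RNA per cell. The summed CPM of Ms4a1, Cd79a, Cd79b, Cd22 and Pax5 (B cell markers) was 5562 to 6453 without stimulation, 5768 to 6610 after IFNα, 1042 to 1211 after CpG and 928 to 993 after both, and their part in the results below was not tested. The 4 T cell markers and 3 NK cell markers in the table summed to at most 3.21 CPM in any sample, and the 6 myeloid markers to between 5.3 and 22.5 CPM in unstimulated cells and at most 1.64 CPM after stimulation. Of the 4 plasmacytoid dendritic cell markers, Siglech and Klk1 were at 0 in every sample, Ccr9 was at most 6.69 CPM, and Tcf4, which B cells also express, made up most of a sum of 247 to 310 CPM without stimulation, 427 to 448 with IFNα, 154 to 165 with CpG and 142 to 229 with both. The 4 erythroid markers, mainly the haemoglobin genes Hbb-bs and Hba-a1, summed to 36.2 to 261 CPM, 9.16 to 271, 3.50 to 44.2 and 1.03 to 49.6 CPM in the same order. In that order too, the 4 follicular B cell markers summed to 5132 to 5888, 3844 to 4658, 939 to 1116 and 881 to 997 CPM. The 4 marginal zone B cell markers summed to 219 to 222, 88.8 to 123, 43.0 to 56.3 and 27.8 to 36.5 CPM, and the 4 plasma cell markers to 119 to 145, 97.9 to 115, 54.2 to 80.4 and 45.9 to 73.5 CPM. The part of any of these lists in the results was not tested.

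Of the 9 genes, Stat2, Socs1 and Socs3 moved most with IFNα. Stat2 and Socs1 rose with IFNα, both in cells without CpG and in cells with CpG, whereas Socs3 fell with every stimulus. CpG lowered 8 of the 9 genes, all but Ifnar2, where 38.4% of all genes tested were lower, and these included both kinases of the type I interferon receptor and its Ifnar1 chain. The mitochondrial share of the counts was also lower in every sample with CpG (3.29 to 4.85% with CpG and 2.99 to 3.52% with both) than in any without (6.06 to 7.70% unstimulated and 5.91 to 8.52% with IFNα). All 8 genes were also called lower when rRNA and mitochondrial genes were left out of the fit. Those genes held 3.86 to 11.7% of a sample's counts, so leaving them out could change little. A change of RNA per cell was not tested by it. A gene was called when the Benjamini-Hochberg adjusted p of edgeR's quasi-likelihood test, over all genes tested, was under 0.1.

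**Figure D1:**
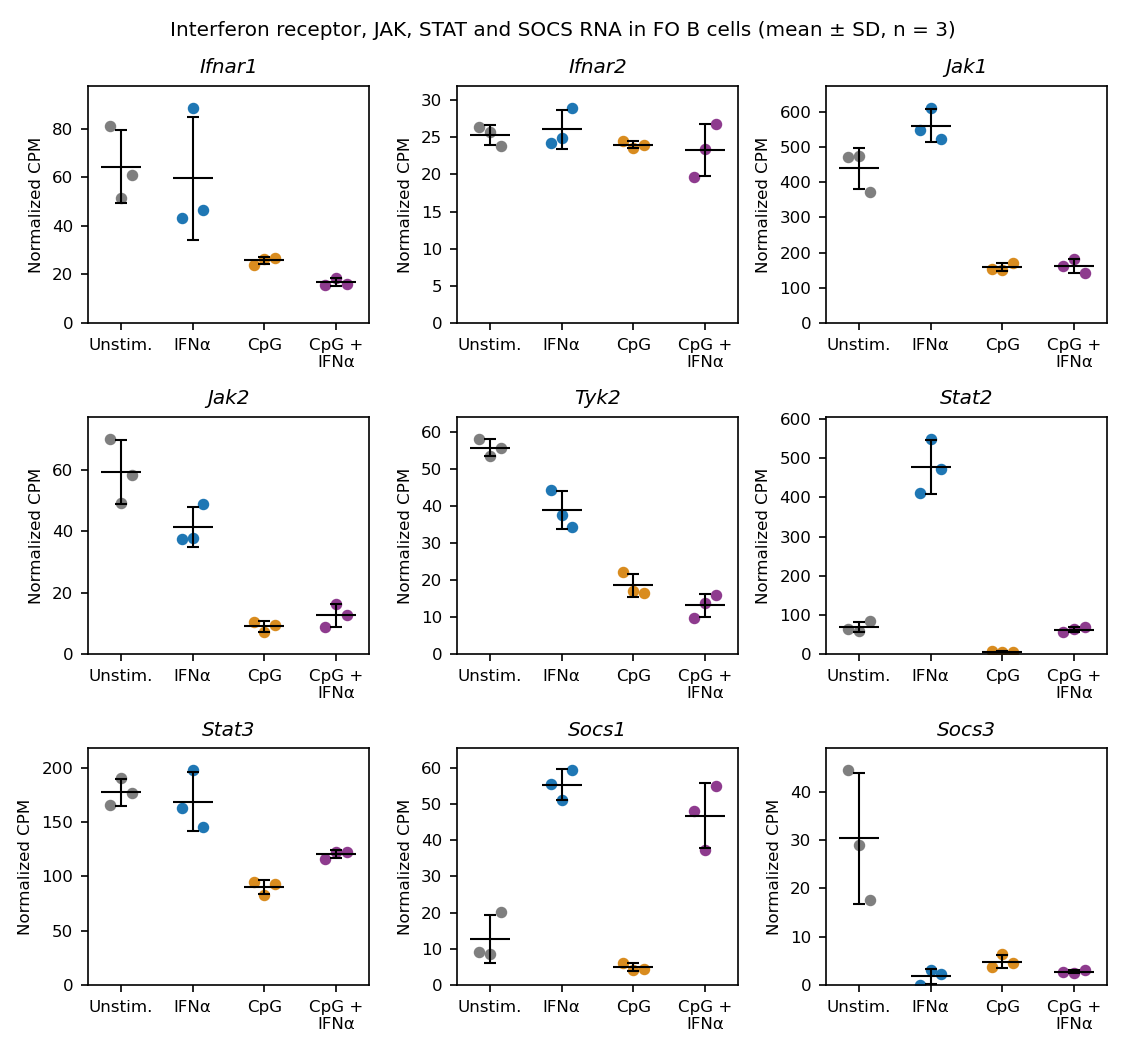
Normalized CPM (linear axis from 0) of each of the 9 genes in the 4 groups. Points are samples, the horizontal line is the mean and the bar the SD (n = 3). Stat2 with IFNα lay between 411 and 550 CPM and with CpG between 5.49 and 7.37 CPM, while Ifnar2 lay between 19.6 and 29.0 CPM in all samples.

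IFNα alone raised 3 of the 9 genes (Jak1, Stat2 and Socs1), lowered 3 (Jak2, Tyk2 and Socs3), and left 3 uncalled, against 12.4% of all genes tested called higher and 11.9% called lower. The median log2 fold change of the 9 was -0.06, beside 0.00 over all genes. CpG alone raised 0 and lowered 8, against 36.5% of all genes higher and 38.4% lower, with a median of -1.46 beside -0.03. CpG + IFNα against unstimulated cells gave 1 higher (Socs1), 6 lower and 2 uncalled (Ifnar2 and Stat2), against 37.6% and 38.8%. These 3 comparisons share the unstimulated samples. With DESeq2 the calls were 3 higher and 1 lower for IFNα and 0 higher and 8 lower for CpG, and 0 of the 9 were higher with CpG at an unadjusted p of edgeR under 0.05.

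Adding IFNα to CpG raised 3 genes (Stat2, Stat3 and Socs1) and lowered 0, against 6.54% of all genes higher and 8.83% lower, and the median of the 9 was 0.02 beside -0.04. At an unadjusted p under 0.05, 2 genes (Ifnar1 and Tyk2) were lower in that comparison, and DESeq2 called 0 lower. Against IFNα alone, CpG + IFNα gave 0 higher and 6 lower, with 36.1% and 39.8% of all genes called, and with 0 and 6 also by DESeq2 and at an unadjusted p under 0.05. CpG against IFNα gave 1 higher (Socs3) and 7 lower, with 37% and 38.5% of all genes called. At an unadjusted p under 0.05, 0 of the 9 were higher there and 7 lower, and DESeq2 called 1 higher and 7 lower. The interaction compares the change made by IFNα in CpG-treated cells with the change it made in the absence of CpG. It was called higher for 4 genes (Jak2, Stat3, Socs1 and Socs3) and lower for 0, with 5.84% and 7.58% of all genes called. An unadjusted p under 0.05 also gave 4 higher and 0 lower, and DESeq2 called 1 of the 9 (Socs3). The number called was 1 without the second CpG sample, 2 without the first or the third IFNα sample, the first or the third CpG sample, or the second or the third CpG + IFNα sample, and 3 without any other 1 sample.

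**Figure D2:**
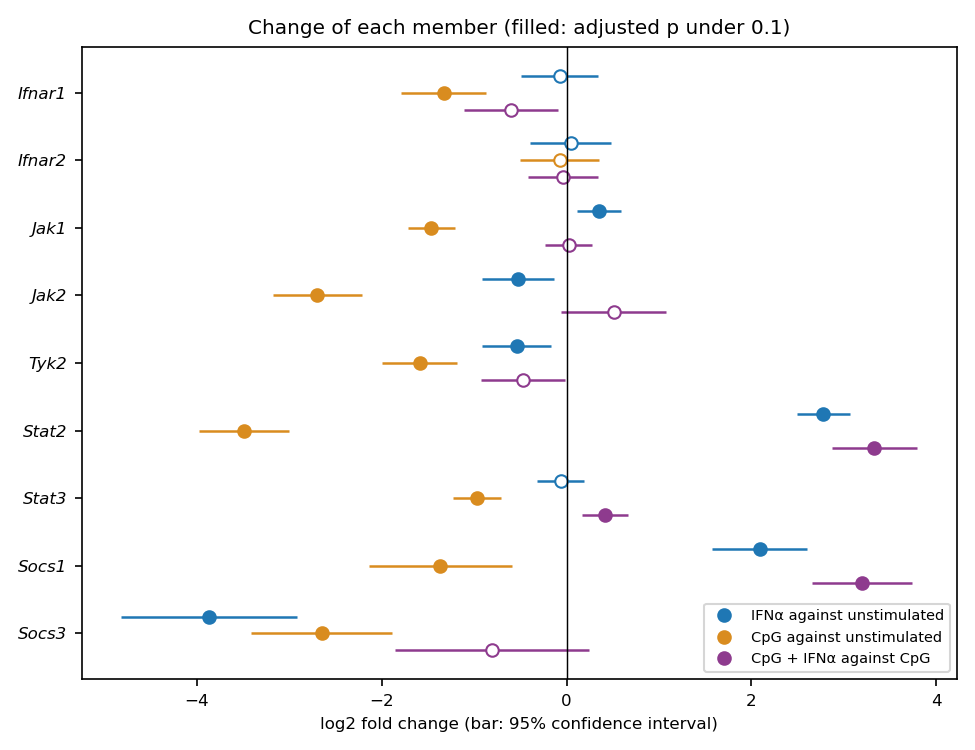
Log2 fold change of each of the 9 genes (horizontal axis) in IFNα against unstimulated, CpG against unstimulated and CpG + IFNα against CpG, with 95% confidence intervals from edgeR. Filled points passed an adjusted p of 0.1. Stat2 and Socs1 were right of 0 in both IFNα comparisons and left of 0 with CpG.

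The receptor chains lie on the same strand of chromosome 16 of GRCm38 (Ifnar2, ENSMUSG00000022971, 91372783 to 91405589, plus strand; Ifnar1, ENSMUSG00000022967, 91485238 to 91507441, plus strand), and only Ifnar1 was called with CpG. Ifnar1, the chain that binds TYK2, measured 81.0, 51.3 and 60.9 CPM in unstimulated cells and 43.4, 88.8 and 46.6 CPM with IFNα. It measured 23.9, 26.4 and 27.0 CPM with CpG and 15.8, 18.6 and 15.9 CPM after CpG + IFNα. The first 2 groups overlapped, every sample with CpG lay below both of them, and every sample with CpG + IFNα lay below those with CpG alone.

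Relative to unstimulated cells, Ifnar1 fell by 1.33 on the log2 scale with CpG (SE 0.23, adjusted p = 4.51e-06) and by 1.93 with CpG + IFNα (SE 0.23, adjusted p = 6.25e-09). Between CpG + IFNα and CpG, the log2 fold change was -0.60 (95% interval -1.11 to -0.09), which did not pass after adjustment (adjusted p = 0.127), although without the second IFNα sample, which shares the estimate of spread, the adjusted p was 0.0449, and without the first it was 0.0996. It also passed with the replicate number as a block (-0.64, adjusted p = 0.0728) and when only these 2 groups were fitted (-0.57, adjusted p = 0.0594). With IFNα alone the change was -0.07 (95% interval -0.49 to 0.35, adjusted p = 0.859). The second IFNα sample, at 88.8 CPM, stood apart from the other two there, and without it the log2 fold change was -0.52 (adjusted p = 0.0649).

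Ifnar2, the chain that binds JAK1, had the narrowest range of the 9 genes. It measured 26.4, 25.7 and 23.8 CPM in unstimulated cells, 24.2, 24.9 and 29.0 CPM with IFNα, 24.6, 23.5 and 24.0 CPM with CpG, and 19.6, 23.5 and 26.7 CPM with both. All 4 groups overlapped each other. Its log2 fold change was 0.05 with IFNα (95% interval -0.39 to 0.49) and -0.07 with CpG (95% interval -0.50 to 0.36). Changes within these intervals remain possible at 24 to 68 counts per sample.

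The ratio of the UMI counts of both chains within a sample sets them side by side without the library size. The ratio of Ifnar1 to Ifnar2 was 2.54 ± 0.535 (SD, n = 3) without stimulation, 2.32 ± 1.08 after IFNα, 1.07 ± 0.0855 after CpG and 0.732 ± 0.118 after CpG + IFNα. Ifnar1 tags thus outnumbered Ifnar2 tags in each of the 6 samples without CpG, were near equal with CpG, and were fewer in all 3 samples with both stimuli. Transcripts of 3′-tagged genes can differ in how well they are primed, so the ratio can be compared between groups but is not a ratio of molecules.

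**Figure D3:**
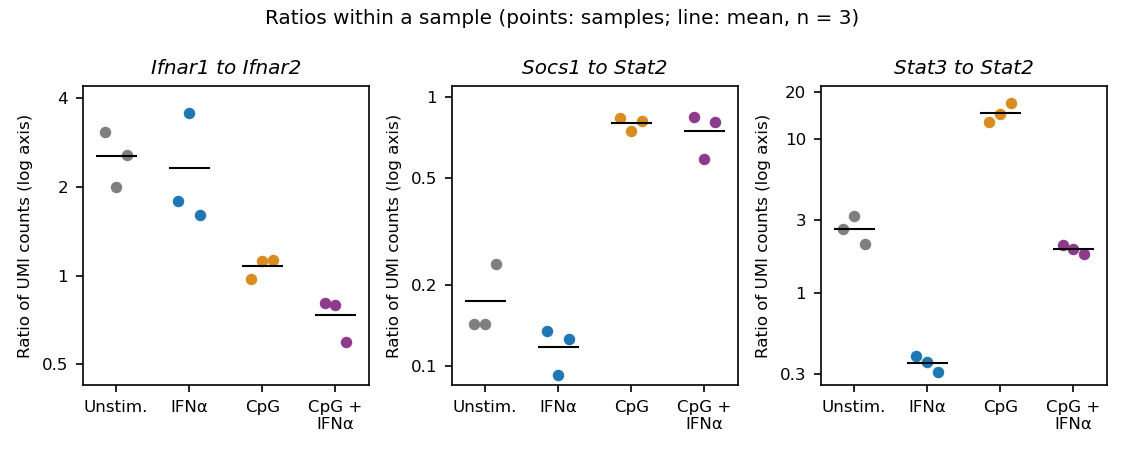
Ratios of UMI counts within a sample (log axis) for Ifnar1 to Ifnar2, Socs1 to Stat2 and Stat3 to Stat2 in the 4 groups. Points are samples and the line is the mean (n = 3). The Ifnar1 to Ifnar2 ratio was 0.732 with CpG + IFNα against 2.54 in unstimulated cells, and the Socs1 to Stat2 ratio was 0.8 with CpG and 0.749 with CpG + IFNα, against 0.175 there. With CpG alone, the ratios to Stat2 rest on 8 to 12 Stat2 counts.

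Jak1, the kinase on IFNAR2 (ENSMUSG00000028530, chromosome 4, 101152367 to 101265282, minus strand), was the most abundant of the 9 genes by UMI counts. It measured 471, 475 and 372 CPM in unstimulated cells and 547, 612 and 523 CPM with IFNα. With CpG it measured 155, 152 and 171 CPM, and with CpG + IFNα 162, 181 and 141 CPM. IFNα alone gave the highest 3 samples, without overlap, and the groups with CpG overlapped each other well below the rest.

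The rise of Jak1 with IFNα was 0.35 on the log2 scale (SE 0.12, adjusted p = 0.0286), and it did not pass without the third unstimulated sample (0.22, adjusted p = 0.294). With CpG, Jak1 fell by 1.46 (SE 0.12, adjusted p = 2.89e-12). When IFNα was added to CpG the change was 0.02 (95% interval -0.23 to 0.28, adjusted p = 0.947), and the interaction was -0.33 (95% interval -0.68 to 0.02, adjusted p = 0.248). A rise of Jak1 with IFNα was thus seen without CpG, was not detected with it, and the difference between the 2 effects did not pass the test.

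Tyk2, the kinase on IFNAR1 (ENSMUSG00000032175, chromosome 9, 21104068 to 21131243, minus strand), had its mean lower in each group than in the one named before it. It measured 58.2, 53.5 and 55.6 CPM in unstimulated cells, 44.4, 37.7 and 34.3 CPM with IFNα, 22.1, 17.1 and 16.5 CPM with CpG, and 9.82, 13.8 and 15.9 CPM with both. None of the 4 groups overlapped. Tyk2 fell by 0.54 with IFNα (SE 0.18, adjusted p = 0.0341) and by 1.59 with CpG (SE 0.20, adjusted p = 1.41e-08), while the last step, from CpG to CpG + IFNα, was -0.47 (95% interval -0.93 to -0.02) and did not pass (adjusted p = 0.19). The step with IFNα alone did not pass without the first unstimulated sample (adjusted p = 0.11), without the third IFNα sample (0.142) or with DESeq2 (0.115).

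Jak2, a kinase of the receptors for IFN-γ and other cytokines (ENSMUSG00000024789, chromosome 19, 29251828 to 29313080, plus strand), had the largest decrease with CpG of the 3 kinases. It measured 70.1, 49.2 and 58.2 CPM in unstimulated cells, 37.3, 37.7 and 48.8 CPM with IFNα, 10.4, 7.13 and 9.49 CPM after CpG and 8.73, 16.2 and 12.8 CPM after CpG + IFNα. The last 2 groups overlapped and both lay far below the others. With CpG it fell by 2.69 on the log2 scale (SE 0.24, adjusted p = 8.44e-12), a 6.47-fold loss.

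The values of Jak2 with IFNα had opposite signs without and with CpG. Without CpG the log2 fold change was -0.52 (SE 0.19, adjusted p = 0.0523), a call lost without the first unstimulated sample (adjusted p = 0.273), the first IFNα sample (0.15) or the second (0.159), and with DESeq2 (0.151). With CpG it was 0.51 (95% interval -0.06 to 1.08, adjusted p = 0.273), and the interaction was 1.04 (SE 0.34, adjusted p = 0.0488). The interaction did not pass without the first unstimulated sample (adjusted p = 0.13), without the second CpG sample (0.13), without the second CpG + IFNα sample (0.235), or with DESeq2 (0.119).

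Stat2, the STAT subunit particular to ISGF3 (ENSMUSG00000040033, chromosome 10, 128270559 to 128292849, plus strand), had the widest range of the 9 genes. It measured 63.7, 59.9 and 84.7 CPM in unstimulated cells, 411, 550 and 472 CPM with IFNα, 7.37, 5.70 and 5.49 CPM with CpG, and 56.7, 63.1 and 67.8 CPM after CpG + IFNα. Only the unstimulated and CpG + IFNα groups overlapped. In the CpG samples the level rested on 12, 8 and 11 UMI counts, above the 3 counts taken as the limit of detection.

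IFNα raised Stat2 by 2.78 on the log2 scale (SE 0.14, adjusted p = 1.86e-17), a 6.86-fold rise, and CpG lowered it by a log2 fold change of -3.49 (SE 0.24, adjusted p = 2e-14), an 11.2-fold loss. On top of CpG, IFNα raised it by 3.33 (SE 0.23, adjusted p = 1.22e-13). The rises with and without CpG differed by 0.55 (95% interval -0.06 to 1.16), and this interaction did not pass (adjusted p = 0.28). With both stimuli the difference of Stat2 from unstimulated cells was -0.16 (95% interval -0.48 to 0.16, adjusted p = 0.375), which did not pass, and it was lower than with IFNα alone (log2 fold change -2.93, SE 0.13, adjusted p = 1.78e-19).

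Stat3, which carries signals of IL-6, IL-10 and IL-21 (ENSMUSG00000004040, chromosome 11, 100885098 to 100939540, minus strand), moved less. It measured 166, 190 and 176 CPM in unstimulated cells, 162, 198 and 145 CPM with IFNα, 94.6, 82.7 and 93.4 CPM with CpG, and 116, 122 and 123 CPM after CpG + IFNα. The groups without CpG overlapped each other, and the samples with both stimuli lay between these and the CpG samples, without overlap. The last 72 exon bases of Stat3 are shared with the antisense gene Stat5a, and the strand setting of the counting is not given in the sources used here, so reads there cannot be assigned with certainty.

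CpG lowered Stat3 by 0.97 on the log2 scale (log2 fold change -0.97, SE 0.13, adjusted p = 5.06e-08), and IFNα added to CpG raised it by 0.41 (SE 0.12, adjusted p = 0.0243). The latter did not pass without the second CpG sample (adjusted p = 0.122). IFNα alone gave -0.06 (95% interval -0.31 to 0.19, adjusted p = 0.781), and the interaction was 0.48 (SE 0.17, adjusted p = 0.0832), which was lost in 8 of the 12 fits that left out 1 sample (adjusted p up to 0.257) and with DESeq2 (0.129). It was kept without the first or the third unstimulated sample, the second IFNα sample or the first CpG + IFNα sample. The ratio of Stat3 to Stat2 counts was 2.62 ± 0.548 (SD, n = 3) without stimulation, 0.354 ± 0.0444 with IFNα, 14.8 ± 2.1 with CpG and 1.93 ± 0.119 with both. With CpG alone that ratio rests on 8 to 12 Stat2 counts, so its SD understates the counting error.

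Socs1, the inhibitor of JAK1, JAK2 and TYK2 (ENSMUSG00000038037, chromosome 16, 10782240 to 10785536, minus strand), rose with IFNα whether CpG was present or not. It measured 9.10, 8.56 and 20.3 CPM in unstimulated cells, 55.5, 51.1 and 59.5 CPM with IFNα, 6.14, 4.28 and 4.49 CPM with CpG, and 48.0, 37.3 and 55.0 CPM after CpG + IFNα. The 2 groups with IFNα overlapped each other and lay above all other samples. Counts behind the low groups were 10, 8 and 23 in unstimulated cells and 10, 6 and 9 with CpG.

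With IFNα alone Socs1 rose by 2.09 on the log2 scale (SE 0.25, adjusted p = 6.53e-08), and with IFNα added to CpG by 3.19 (SE 0.27, adjusted p = 2.2e-11). CpG alone gave -1.36 (SE 0.38, adjusted p = 0.00206). The interaction was 1.11 (SE 0.42, adjusted p = 0.0971), close to the threshold. It was lost in 9 of the 12 fits that left out 1 sample, all but those without the first or second unstimulated sample or the second CpG + IFNα sample, and with DESeq2 (0.161). Without the third unstimulated sample, which held 23 counts, it was 0.64 (adjusted p = 0.496).

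Between the 2 groups with IFNα, Stat2 differed and Socs1 did not pass the test. Socs1 with CpG + IFNα was at -0.26 on the log2 scale relative to IFNα alone (95% interval -0.62 to 0.10, adjusted p = 0.194), although it passed without the third CpG + IFNα sample (-0.38, adjusted p = 0.0898). Stat2 was at -2.93 in this comparison, and the difference between both genes was not tested. The ratio of Socs1 to Stat2 counts was 0.175 ± 0.0558 (SD, n = 3) in unstimulated cells and 0.118 ± 0.0223 with IFNα, and 0.8 ± 0.0444 with CpG and 0.749 ± 0.139 with CpG + IFNα, with no overlap between the 6 samples with CpG and the 6 without. With CpG alone the ratio rests on 6 to 10 Socs1 and 8 to 12 Stat2 counts, so its SD understates the counting error.

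Socs3, an inhibitor of JAKs at the receptors of the IL-6 family (ENSMUSG00000053113, chromosome 11, 117966079 to 117970047, minus strand), was highest in unstimulated cells. It measured 44.6, 28.9 and 17.6 CPM there, 0, 3.04 and 2.29 CPM with IFNα, 3.68, 6.42 and 4.49 CPM with CpG, and 2.73, 2.42 and 3.08 CPM with both. The unstimulated samples lay above all others. The stimulated levels rested on few UMIs: 0, 5 and 3 counts with IFNα, 6, 9 and 9 with CpG, and 5, 7 and 6 with both.

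Socs3 had a log2 fold change of -3.86 with IFNα (SE 0.47, adjusted p = 6.53e-08), -2.65 with CpG (SE 0.37, adjusted p = 1.88e-07) and -3.45 with CpG + IFNα (SE 0.39, adjusted p = 1.97e-09). Because the stimulated counts are near the limit of detection, the sizes are uncertain, and that with IFNα was between -4.46 and -3.44 when any 1 sample was left out. The interaction of 3.06 (SE 0.76, adjusted p = 0.00845) was called with every 1 of the 12 samples left out, but not when counts were drawn down to the smallest total (2.53, adjusted p = 0.151). It rests on the high unstimulated group, through which Socs3 also passed the filter on low counts. With CpG alone Socs3 was already at 6 to 9 counts. The interaction therefore cannot tell a smaller effect of IFNα from the limit of detection. Socs3 was called 1.22 higher with CpG than with IFNα (SE 0.62, adjusted p = 0.0806), and this was lost without the first IFNα sample, which had 0 counts (0.83, adjusted p = 0.23), without the third IFNα sample (adjusted p = 0.106), without the second CpG sample (0.185) and without the third (0.102). Both of these groups lie near the limit of detection, and Socs3 could not be tested when only these 2 groups were fitted.

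A set of 7 immediate-early genes, which respond within minutes to handling or activation of cells, was likewise highest in unstimulated cells. The summed CPM of Fos, Fosb, Egr1, Jun, Ier2, Dusp1 and Nr4a1 was 2694 to 4277 in unstimulated cells and 182 to 233 in all stimulated samples, and their part in the Socs3 result was not tested. Fos had 1269 ± 182 CPM (SD, n = 3) in unstimulated cells and 5.08 ± 0.241 CPM with IFNα, a log2 fold change of -7.95 (SE 0.21, adjusted p = 6.13e-24). Its interaction of 7.41 (adjusted p = 4.78e-11), like that of Socs3, had an effect of IFNα that was large without CpG (-7.95) and was not called with CpG (-0.54, adjusted p = 0.46). With CpG alone Fos had only 7 to 15 counts, so that it too had little room to fall. Since the unstimulated group alone is high in these genes, its handling and the absence of a stimulus cannot be told apart.

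**Figure D4:**
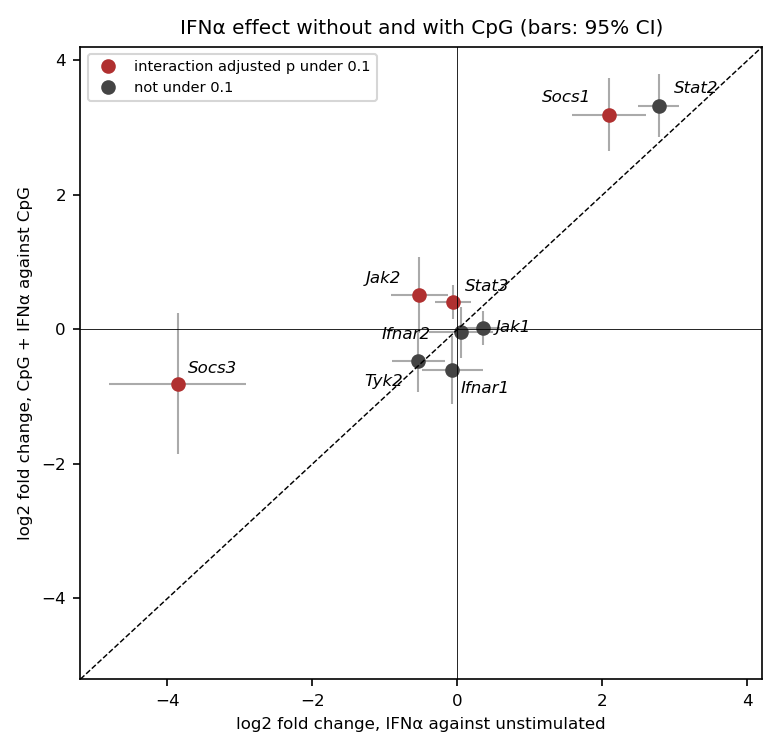
Log2 fold change of each of the 9 genes with IFNα in the absence of CpG (horizontal axis) and in its presence (vertical axis), with 95% confidence intervals. The dashed line marks equal effects. Stat2 and Socs1 were high on both axes, and Socs3, at -3.86 and -0.81, lay farthest from the line.

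Genes around the 9 were examined by lists, whose counts are to be read beside the shares of all genes called. Among 11 other JAK, STAT and SOCS genes, 9 could be tested and Cish and Socs2 had too few counts. IFNα raised 1 of the 9 tested, Stat4, which acts downstream of IL-12 (34.6 ± 11.6 to 56.4 ± 4.46 CPM, SD, n = 3, log2 fold change 0.70, adjusted p = 0.0137), and lowered 0 (1 at an unadjusted p under 0.05, 0 with DESeq2), against 12.4% of all genes higher and 11.9% lower. CpG raised Socs4 (0.35, adjusted p = 0.0539) and lowered Jak3, Stat4, Stat5b, Stat6 and Socs5, with log2 fold changes between -2.28 for Jak3 and -0.79 for Stat5b, while DESeq2 called 0 higher and all genes had 36.5% higher and 38.4% lower. With IFNα added to CpG, 1 of 9 was called, beside 6.54% of all genes higher and 8.83% lower. This was Stat5a, which carries signals of IL-2 (0.56, SE 0.17, adjusted p = 0.0307). In the interaction, Stat5a was also the only gene of this list called (0.89, adjusted p = 0.0423). Of all genes, 5.84% were higher there and 7.58% lower. DESeq2 called 0 of the 9 in either comparison. Stat3 was called in the same 2 comparisons, and the 72 exon bases at the 3′ end that both genes share on opposite strands leave reads there unassigned for Stat5a as for Stat3.

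Irf9, the partner of Stat2 in ISGF3, measured 83 ± 7.07 CPM (SD, n = 3) without stimulation, 286 ± 15.8 with IFNα, 32.7 ± 3.79 with CpG and 151 ± 23 with both. Its log2 fold changes were 1.78 with IFNα (SE 0.13, adjusted p = 7.05e-13), -1.34 with CpG (SE 0.16, adjusted p = 1.14e-08) and 2.21 with IFNα added to CpG (SE 0.14, adjusted p = 3.28e-14). These 3 had the sign of Stat2 and were smaller in size. With both stimuli against unstimulated cells Irf9 was higher (0.87, SE 0.13, adjusted p = 7.52e-07), where Stat2 was at -0.16 and did not pass.

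Irf9 was listed with 14 other regulators of the pathway, most of them negative. IFNα called 3 of the 15 higher and 2 lower (12.4% and 11.9% of all genes), CpG 4 higher and 8 lower (36.5% and 38.4%), and IFNα added to CpG 2 higher and 1 lower (6.54% and 8.83%). Usp18, an inhibitor that binds IFNAR2, went from 17.8 ± 8.11 to 515 ± 62.4 CPM (SD, n = 3) with IFNα and from 9.31 ± 4.78 with CpG to 330 ± 31.6 with both (log2 fold changes 4.81 and 5.13, adjusted p = 1.52e-19 and 1.33e-19). Ptpn6, the phosphatase SHP-1, was lower in each of these comparisons, at -0.53 with IFNα (adjusted p = 0.00141), -2.26 with CpG (adjusted p = 1.82e-16) and -0.68 with IFNα added to CpG (adjusted p = 0.00037). In the interaction edgeR and DESeq2 each called 0 of the 15, where 5.84% of all genes were higher and 7.58% lower. Of the 15, 1 had an unadjusted p under 0.05.

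Of 16 tested chains of other receptors that signal through JAKs, CpG called 2 higher and 13 lower, against 36.5% and 38.4% of all genes, with a median log2 fold change of -1.30 beside -0.03 over all genes. The 2 higher were Ifnlr1, a chain of the type III interferon receptor (2.26 ± 0.818 to 38.5 ± 4.61 CPM, SD, n = 3, adjusted p = 3.75e-11, with no fold given at 2 to 3 counts in unstimulated samples), and Il2ra (2.09, adjusted p = 4.08e-06). Il6ra, the chain that binds IL-6, had -4.08 (adjusted p = 2.71e-14), and Ifngr1, the chain that binds IFN-γ, -1.38 (adjusted p = 1.45e-08). IFNα alone called 0 higher (2 at an unadjusted p under 0.05, 0 with DESeq2) and 5 lower, against 12.4% and 11.9% of all genes, among them Csf2ra (-1.76, adjusted p = 9.99e-05) and Il27ra (-1.08, adjusted p = 0.000456). IFNα added to CpG called 2 higher and 1 lower, against 6.54% and 8.83% of all genes. The higher ones were Il2ra (20.3 ± 3.33 to 60.3 ± 7.85 CPM, 1.57, adjusted p = 8.35e-08) and Il15ra (1.51 ± 0.944 to 8.39 ± 3.54 CPM, adjusted p = 0.00102, with no fold given at 1 to 5 counts with CpG). The lower one was Ifngr1 (-0.48, adjusted p = 0.0952), and DESeq2 called 0 lower.

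Of 23 ligand genes of these receptors, 4 could be tested. Il6, whose receptor signals through STAT3, measured 5.83 ± 2.83 CPM (SD, n = 3) without stimulation, 3.1 ± 1.92 with IFNα, 147 ± 35.6 with CpG and 345 ± 46.9 with both, so that IFNα added to CpG raised it by 1.22 on the log2 scale (SE 0.14, adjusted p = 2.29e-08). Ebi3, a subunit of IL-27, was lower with IFNα (5.71 ± 1.82 to 1.92 ± 0.968 CPM, adjusted p = 0.0519). No fold is given at 2 to 3 counts with IFNα, and DESeq2 did not make this call. Il10 rose with CpG (1.64, adjusted p = 0.00631) and was at -0.02 when IFNα was added (adjusted p = 0.987). Of the type I interferon genes listed, Ifna4 had at most 1 count in any sample and Ifnk had 0. The others, Ifnb1, Ifna1, Ifna2, Ifna5 and Ifne, were not among the genes counted, so their expression cannot be read here.

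Interferon-stimulated genes are the targets of Stat2 and Irf9. Of 18 of them, taken as a list, IFNα raised all 18 both without CpG (median log2 fold change 4.66 beside 0.00 over all genes) and with it (median 5.16 beside -0.04), where 12.4% and 6.54% of all genes were higher. CpG alone called 16 lower and 1 higher (median -2.06 beside -0.03), against 38.4% and 36.5% of all genes. With CpG + IFNα against IFNα alone, 15 of the 18 were lower and 0 higher (also 0 with DESeq2 and at an unadjusted p under 0.05, median -1.26 beside -0.07), against 39.8% and 36.1% of all genes. Ifit3, an antiviral effector, measured 12.6 ± 5.56 CPM (SD, n = 3) without stimulation, 1376 ± 118 with IFNα, 0.985 ± 1.3 with CpG and 101 ± 13.7 with both. Irf7, a transcription factor that amplifies interferon production, measured 61.4 ± 13, 1762 ± 190, 12.1 ± 3.48 and 315 ± 37.1 CPM in the same order. Both were lower with CpG + IFNα than with IFNα alone, as Stat2 was, with log2 fold changes of -3.76 for Ifit3 (SE 0.14, adjusted p = 2.53e-21) and -2.48 for Irf7 (SE 0.12, adjusted p = 4.71e-18).

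Across the 18, this difference ran from -4.16 for Oas2 (adjusted p = 1.34e-17) to 0.14 for Ifi35 (adjusted p = 0.26). Isg20, an exonuclease, measured 649 ± 49.9 CPM with IFNα and 498 ± 33.9 with both (13.4 ± 1.19 with CpG), and Oasl1, a relative of the oligoadenylate synthetases, 686 ± 26.7 and 399 ± 12.1 CPM (27.3 ± 1.75 with CpG). Both were called lower with CpG + IFNα than with IFNα, at -0.38 for Isg20 (adjusted p = 0.00137) and -0.78 for Oasl1 (adjusted p = 6.35e-08). Isg15, a ubiquitin-like protein, measured 17.5 ± 7.95 CPM without stimulation, 603 ± 123 with IFNα, 7.59 ± 1.3 with CpG and 545 ± 53.7 with both, and its difference between the groups with IFNα did not pass (-0.14, adjusted p = 0.329). The interaction was called for 6 of the 18, higher for Isg15, Rtp4, Ddx58, Zbp1 and Isg20 and lower for Bst2, against 5.84% and 7.58% of all genes.

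Genes linked to STAT3 were read from a list of 12. Of 11 tested, IFNα added to CpG called 0 higher (2 at an unadjusted p under 0.05, 0 with DESeq2) and 1 lower (6.54% and 8.83% of all genes), while Stat3 itself rose. CpG called 4 higher and 7 lower (36.5% and 38.4%), and among these Batf, a transcription factor of activated lymphocytes, had 3.53 (adjusted p = 4.1e-18), Myc 1.66 (adjusted p = 2.94e-12) and Bcl3 -1.76 (adjusted p = 2.17e-08). IFNα alone called 0 higher (also 0 at an unadjusted p under 0.05 and with DESeq2) and 6 lower (12.4% and 11.9% of all genes), among them the immediate-early genes Fos and Junb (-7.95 and -3.96), Myc (-2.28, adjusted p = 4.69e-12) and the kinase gene Pim1 (-1.22, adjusted p = 4.68e-09). Myc was thus lower with IFNα and higher with CpG than in unstimulated cells. For Fos, Junb, Myc and Pim1 too, the handling of the unstimulated cells and the absence of a stimulus cannot be told apart.

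**Figure D5:**
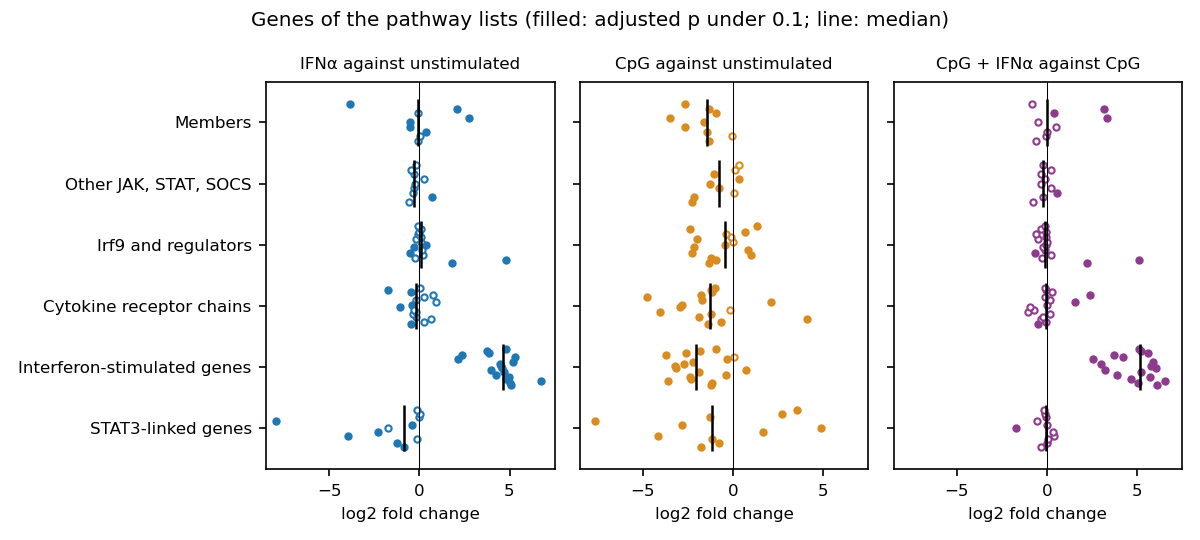
Log2 fold change (horizontal axis) of the 9 genes and of 5 lists of related genes in 3 comparisons. Points are genes, filled where the adjusted p was under 0.1, and the vertical line is the median of the list. The 18 interferon-stimulated genes lay right of 0 in both IFNα comparisons (medians 4.66 and 5.16), and the cytokine receptor chains had a median of -1.30 with CpG.

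The genes whose log2 CPM over the 12 samples was most like that of each of the 9 (Pearson's r, a description, since the samples share groups and depth) were Ppcdc for Ifnar1 (r = 0.974), Xrcc1 for Ifnar2 (0.877), Plcl2 for Jak1 (0.994), Rfx1 for Jak2 (0.982), Ffar1 for Tyk2 (0.987), Ifi209 for Stat2 (0.994), Gm43813 for Stat3 (0.977), Trim30d for Socs1 (0.982) and Rhob for Socs3 (0.964). Ifi209 and the second gene for Socs1, Isg20 (0.981), are known to be induced by interferon. With Spearman's rho only 1 of the 18 genes ranked first or second stayed, so these names depend on the measure. Among the 9 themselves, r was 0.835 between Stat2 and Socs1, -0.556 between Socs1 and Socs3, and between 0.853 and 0.917 for every pair among Ifnar1, Jak1, Jak2 and Tyk2.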

How the data were processed

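RNA of mouse FO B cells was measured in 12 samples, 3 in each of 4 groups. The values deposited by the authors are raw UMI counts of each gene. By their methods and processing notes, they used UMI-tools 1.1.2, Trim Galore 0.6.7, HISAT2 2.2.1 (GRCm38) and featureCounts 2.0.1, and extended Tlr9 by 3 kb. The annotation release and strand setting are not given in the sources used here. The list of sample barcodes was not used. Samples were grouped by GEO's labels.

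From the deposited counts, edgeR 4.0.16 (R 4.3.3) filtered genes (filterByExpr), computed TMM factors and fitted all 12 samples together (8 residual degrees of freedom). The quasi-likelihood test covered 9431 genes in 7 comparisons, with Benjamini-Hochberg adjustment over all of them. Called genes had an adjusted p under 0.1. No 2 replicates agreed within sampling noise (chi-square per degree of freedom 1.9 to 6.31). The scripts were tested on simulated data. Depth was 922450 to 2923865 UMI counts per sample, and limits of detection cover counting error only. Positions are from GENCODE M21 and promoters from RefSeq.

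Alternatives were other normalizations, filters, thresholds and samples in the fit, counts drawn down to the smallest total, removal of rRNA and mitochondrial genes, a replicate block, DESeq2 1.42.0, and each sample left out in turn. The 9 genes and the gene lists were chosen with earlier results of these data known. Named genes are the 9, those most like them, and up to 4 genes of a list by smallest p among those called and over 2-fold with IFNα against unstimulated or with CpG + IFNα against CpG. Others were named after their values were seen. Usp18 and Il4ra are in 2 lists each. A further B cell marker is not reported here.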

Additional observations from a re-analysis of the deposited data

Results flagged for a closer look

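The interaction (the effect of IFNα with CpG minus that without) was called for 4 of the 9 genes, all higher. Of all genes tested, 5.84% were higher and 7.58% lower. Calls are from edgeR's quasi-likelihood test with Benjamini-Hochberg adjustment over all genes tested. Jak2 had an interaction of 1.04 (IFNα effects -0.52 without CpG and 0.51 with it), Stat3 of 0.48 (-0.06 and 0.41), Socs1 of 1.11 (2.09 and 3.19) and Socs3 of 3.06 (-3.86 and -0.81), all on the log2 scale. Jak2, Stat3 and Socs1 lost this call with DESeq2, and Socs3 kept it there. After every library was thinned to the total of the shallowest, 0 of the 9 were called (Socs3 adjusted p = 0.151). When 1 sample was left out, Socs1 lost the call in 9 of 12 fits, Stat3 in 8, Jak2 in 3 and Socs3 in 0. Socs3 rested on 0 to 9 counts per stimulated sample, so once CpG was present it had little room to fall. Its interaction therefore cannot tell a smaller effect of IFNα from the limit of detection.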

How the results depend on the processing

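Of the 42 results called among the 9 genes in the 7 comparisons, 0 changed sign under any alternative that could be fitted. These were 24, or 23 for the 4 interactions and for Socs3 in CpG against IFNα, which could not be tested when only the 2 groups compared were fitted. The values below are log2 fold changes unless they are counts. The number of the 9 genes called with IFNα against unstimulated went from 6 to 3 when a log2 fold change over 1 was also required, and the number called in the interaction went from 4 to 2 at an adjusted p under 0.05, to 0 when counts were drawn down to the smallest total, to 1 with DESeq2, and to between 1 and 3 when 1 sample was left out. Signs turned among results that were not called: Ifnar2 with IFNα to -0.035 by library size only and -0.02 by the upper quartile, Ifnar2 with CpG + IFNα to 0.0037 against unstimulated and 0.0194 against CpG without a filter on low counts, and, in counts drawn down, Jak1 to -0.0841 with CpG + IFNα against CpG and Socs3 to -0.1018 against IFNα. Leaving out 1 sample turned the sign of 9 results. With IFNα these were Ifnar1 (-0.5167 to 0.1325), Ifnar2 (-0.0301 to 0.0934) and Stat3 (-0.2048 to 0.0439). With CpG + IFNα they were Stat2 (-0.2256 to 0.0381) and Ifnar2 (-0.1908 to 0.0012) against unstimulated, and Ifnar2 (-0.1392 to 0.0521) and Jak1 (-0.072 to 0.1092) against CpG. In the interaction they were Ifnar2 (-0.1897 to 0.0281) and Tyk2 (-0.0687 to 0.2057). The causes were not tested, except that fewer counts or samples enter those fits.

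Over all genes, requiring a log2 fold change over 1 reduced the genes called from 2295 to 814 (IFNα against unstimulated), 7062 to 4303 (CpG against unstimulated), 7204 to 4329 (CpG + IFNα against unstimulated), 1450 to 468 (CpG + IFNα against CpG), 7158 to 4175 (CpG + IFNα against IFNα), 7120 to 4156 (CpG against IFNα) and 1266 to 590 (interaction). CpG + IFNα against CpG had 963 in counts drawn down and 919 with DESeq2, and the interaction 826 and 758. Replicate numbers are shared between the groups, and the deposited list of barcodes carries the same numbers, but neither says that a number marks a shared mouse or day. Samples with the same number had correlated deviations of -0.065 to 0.205 (5 of 18 pairs over 0.1, none with an unstimulated sample). Pairs with different numbers had -0.203 to 0.056 (0 of 36 over 0.1), and 10 of 12 samples correlated best with their own number. With the replicate number as a block, the genes called among the 9 were 6, 8, 7, 4, 6, 8 and 4 in the order of comparisons above, the added one being Ifnar1 in CpG + IFNα against CpG (-0.64, adjusted p = 0.0728). That call was also gained when only these 2 groups were fitted (-0.57, adjusted p = 0.0594). Of the 18 genes named as most like the 9, 15 stayed by library size only and 1 by Spearman's rho. Depth limits Socs3, at 0 to 9 counts per stimulated sample.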
